A study of Mus musculus with 18 samples.

Results

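Ddit4, Asns, Upp1, Ddit3, Atf4 and Hspa5 are genes that cells switch on under shortage of energy, oxygen or amino acids or under unfolded protein stress. They were followed in total RNA from E9.5 mouse embryos, of which each had been cut into 3 and the middle piece kept. The embryos were homozygous mutant (null), heterozygous (het) or wild type (wt) for Nkx2-5 (Csx), which encodes a heart homeodomain protein. Probe sets, groups of oligonucleotide probes that are read as 1 value, were taken where the platform annotation gives 1 of these 6 symbols and no other. This found 7 probe sets for the 6 genes, of 13057 probe sets and 6137 named genes on 2 array types. Asns, Upp1, Atf4 and 1 probe set of Hspa5 lie on type a, and Ddit4, Ddit3 and the other probe set of Hspa5 on type b. Each genotype had 3 arrays of each type: replicates 2, 6 and 8 (type a) or 9 (type b) for null, 3, 4 and 8 for het, and 1, 5 and 7 for wt. The labels give no strain, litter or somite stage and do not give whether RNA was pooled over embryos, so the spread between arrays may be technical. The genes were chosen by their intensity in null against wt, so their differences between those genotypes are described and not tested. The null arrays also enter the comparison of null with het, which is described in the same way.

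The genes belong to overlapping stress pathways. Ddit4 (also called Redd1) holds back the growth kinase complex mTORC1 through Tsc1 and Tsc2, and its transcription is known to be raised by the oxygen-sensing factor HIF, by Atf4, by p53 and by glucocorticoids. Atf4 is a transcription factor made when eIF2 is phosphorylated, by Gcn2 in amino acid shortage or by Perk in stress of the endoplasmic reticulum (ER), and much of its control lies in translation, which arrays of RNA do not read. Asns, asparagine synthetase, is a standard Atf4 target, and Ddit3 (Chop) is induced by Atf4 under strong stress of either kind. Hspa5 (BiP) is the main chaperone of the ER and a standard readout of the Atf6 and Xbp1 branches of the unfolded protein response. Upp1, uridine phosphorylase, splits uridine into uracil and ribose phosphate, from which the sugar can enter energy metabolism.

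The sequences before the starts of Ddit4, Asns and Hspa5 are shown because each is a textbook target of a different one of these pathways. They are the 250 bases before the RefSeq start on build GRCm38.p6, on the strand of the gene and written 5′ to 3′: Ddit4 at chr10:59951771-59952020 (minus strand), Asns at chr6:7693210-7693459 (minus strand) and Hspa5 at chr2:34771840-34772089 (plus strand). Capitals mark each match, on either strand, to the core of the hypoxia response element (ACGTG or GCGTG), to the composite element bound by C/EBP and Atf factors (TGATGNAA) or to the ER stress element (CCAAT and CCACG, 9 bases apart).
Ddit4: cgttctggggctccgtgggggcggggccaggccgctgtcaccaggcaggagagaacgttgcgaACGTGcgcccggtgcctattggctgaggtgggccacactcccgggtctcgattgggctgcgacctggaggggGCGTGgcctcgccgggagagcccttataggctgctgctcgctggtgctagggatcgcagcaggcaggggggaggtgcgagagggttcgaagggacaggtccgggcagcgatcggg
Asns: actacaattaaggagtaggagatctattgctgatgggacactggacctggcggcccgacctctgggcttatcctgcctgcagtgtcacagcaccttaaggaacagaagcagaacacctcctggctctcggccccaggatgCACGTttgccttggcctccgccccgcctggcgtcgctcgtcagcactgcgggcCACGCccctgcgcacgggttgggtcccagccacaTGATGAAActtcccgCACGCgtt
Hspa5: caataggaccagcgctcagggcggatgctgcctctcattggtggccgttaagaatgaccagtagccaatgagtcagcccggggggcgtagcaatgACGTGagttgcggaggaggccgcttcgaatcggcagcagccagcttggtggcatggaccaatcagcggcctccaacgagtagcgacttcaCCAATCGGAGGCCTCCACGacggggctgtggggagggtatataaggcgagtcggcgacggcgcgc
Ddit4 held 2 hypoxia cores, the first beginning at position -187 from the start, and neither of the other motifs. Asns held the composite element as TGATGAAA, beginning 23 bases before the start, and 3 hypoxia cores. Hspa5 held the ER stress element, beginning 65 bases before the start, and 1 hypoxia core. No match in these windows overlapped another. A hypoxia core was found in 38.6% of the 32851 windows of the same length in the RefSeq table, the composite element in 3.45% and the ER stress element in 0.113%. The windows of Ddit3 and Atf4 held 2 and 3 hypoxia cores and neither of the other motifs. Of the 3 listed starts of Upp1, 1 had a single hypoxia core and no window had the other motifs. These are matches of letters and not tested sites.

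Intensity is the deposited linear value after background subtraction, which can be negative. Values under a floor of 375.1 on type a and 523.1 on type b, 2 times the noise SD, were set to the floor before log2 was taken, so folds next to the floor understate the difference. Testing needed values over the floor on 3 or more of the 9 arrays. This kept 6935 probe sets for 3909 named genes, with 6 of the 7 probe sets and 5 of the 6 genes described here. Ddit3 did not pass this filter. Nkx2-5 itself had no annotated probe set here, so genotypes were taken from the labels alone. Null arrays 8 (type a) and 9 (type b) stood apart in quality measures. The 3′ to 5′ ratio of actin was 2.5 and 2.28 on them, while the remaining arrays had 0.967 to 1.41 (type a) or 0.849 to 1.4 (type b). The mean of the BioB control probe sets was 3950 and 4531 on them. On the remaining arrays it was 965.6 to 1538.8 (type a) or 1497.8 to 2320.4 (type b). What raised these values was not tested. The tissue was whole and expressed markers of heart muscle (10 genes tested), red cells (6), endothelium (5), neural tube (5) and simple epithelium (6). More RNA per cell and more cells of an expressing type cannot be told apart here.

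Ddit4 was the stress gene with the widest separation between genotypes. Its intensity was 25899, 20959 and 24797 in null 2, 6 and 9, 1937, 3021 and 3090 in het 3, 4 and 8, and 2618, 2208 and 2219 in wt 1, 5 and 7. All null arrays stood far above all others, and the het and wt values overlapped. The means were 23885 ± 2593 in null, 2682 ± 646 in het and 2348 ± 233 in wt (SD, n = 3 each). Null exceeded wt 10.2-fold, a log2 difference of 3.35 (SE 0.209), and het 9.06-fold. Without null replicate 9, the array of high actin ratio, the log2 difference from wt was 3.315.

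Asns, which makes asparagine from aspartate and glutamine, was 9124, 5354 and 7642 in null 2, 6 and 8, 2880, 3185 and 2757 in het 3, 4 and 8, and 2971, 3234 and 2494 in wt 1, 5 and 7. The null values lay above all others and spread widely, with the lowest in null 6. Null averaged 7374 ± 1899, het 2940.5 ± 221 and wt 2899.5 ± 375 (SD, n = 3 each). The log2 difference of null from wt was 1.32 (SE 0.198), a 2.5-fold difference, and ranged from 1.15 to 1.53 when 1 replicate was left out.

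Upp1 was 1131, 1028 and 1171 in null 2, 6 and 8, 362.7, 272.4 and 291.3 in het 3, 4 and 8, and 595.5, 313.5 and 276.7 in wt 1, 5 and 7. Every null array exceeded the floor, whereas no het array and only wt 1 did. Null therefore exceeded het at least 2.95-fold and wt 2.53-fold, a log2 difference from wt of 1.34 (SE 0.225). With the floor at 1 or 3 noise SDs this difference was 1.57 or 0.95.

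Atf4 RNA was higher in null by a smaller factor. It was 16864 (null 2), 15157 (null 6) and 14434 (null 8), against 10889, 10492 and 11223 in het 3, 4 and 8 and 10739, 11656 and 8425 in wt 1, 5 and 7. Null averaged 15485 ± 1248, het 10868 ± 366 and wt 10273 ± 1665 (SD, n = 3 each), and null overlapped neither. The log2 difference of null from wt was 0.60 (SE 0.150), or 1.52-fold.

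Ddit3 was 1430 and 1707 in null 2 and 9 but -730 in null 6. It was -1902, -1465 and -1801 in het 3, 4 and 8, and -973, -1705 and -1405 in wt 1, 5 and 7. So 2 of 3 null arrays exceeded the floor, and none of the other 6 arrays did. Null 6 lay under the floor with het and wt, where values have no order, so no fold is given. Null 6 also had the lowest null value of Ddit4, Asns and Upp1, but the lowest was null 8 for Atf4 and null 2 for both Hspa5 probe sets. Among tested genes above the floor on all null arrays of their type, null 6 was the lowest for 30.6%. It was the lowest for 57.1% of the 21 genes that rose in null against wt.

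Hspa5 did not follow the other genes. On type a it was 12627, 13534 and 16850 in null 2, 6 and 8, 13931, 14649 and 16823 in het 3, 4 and 8, and 11252, 14552 and 15980 in wt 1, 5 and 7. On type b it was 15083, 19456 and 18538 in null 2, 6 and 9, 16627, 15539 and 23333 in het 3, 4 and 8, and 16480, 17564 and 23427 in wt 1, 5 and 7. The genotypes overlapped on both types, and the log2 difference of null from wt was 0.05 (SE 0.173) on type a and -0.11 (SE 0.217) on type b. Both probe set names carry the maker's mark for a sequence family, and how far they also read related chaperones was not tested.

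**Figure D1:**
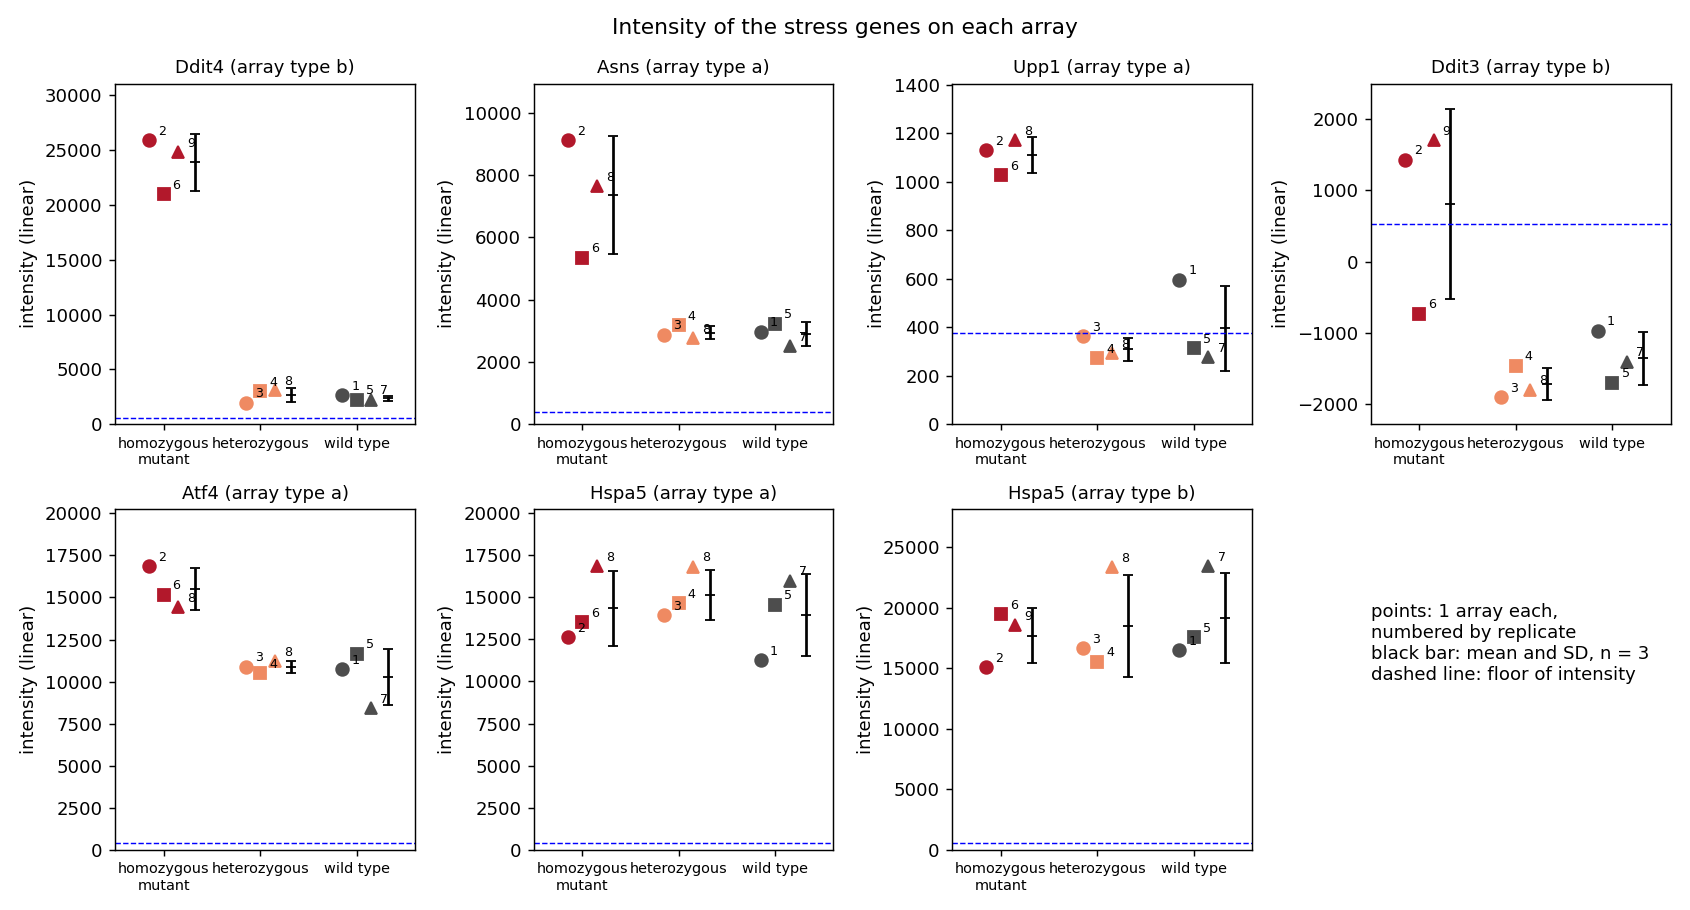
Linear intensity of each stress gene (y axis) on every array by genotype (x axis), with points numbered by replicate, bars for mean and SD (n = 3) and a dashed line at the floor of intensity. The null arrays lie above all het and wt arrays for Ddit4, Asns, Upp1 and Atf4, 2 of 3 do so above the floor for Ddit3, and the genotypes overlap for both Hspa5 probe sets.

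Null did not overlap wt in 4 of the 6 tested probe sets, all on the higher side, as it did in 7.24% of all tested probe sets (502 of 6935). For null and het the same 4 did not overlap, with 9.99% of all tested probe sets on the higher side. Since these values chose the genes and both comparisons use the same null arrays, nothing is read from the counts. In order of level null came first for Ddit4, Asns, Upp1 and Atf4, and het and wt next to each other did not differ beyond their spread.

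Heterozygotes were compared with wild type by limma's test across all probe sets, a comparison that shares the wt arrays with the choice of genes. None of the 6 tested probe sets passed (limma adjusted p = 1 for each), where 0% of 6935 probe sets were called. An unadjusted limma p under 0.05 was found for 118 probe sets in all (1.7%) and for none of these 6. The log2 difference of het from wt was 0.16 for Ddit4 (95% interval -0.30 to 0.62), 0.03 for Asns (-0.41 to 0.46) and 0.09 for Atf4 (-0.23 to 0.42). For Upp1 it was -0.22 (-0.72 to 0.27), with every het array under the floor. As wt 1 was the only wt array over the floor, this value rests on that array, and Upp1 was tested only because null was high. The type a probe set of Hspa5 had 0.13 (-0.25 to 0.51), and its type b probe set had -0.06 (-0.53 to 0.42). The differences between null and wt, which chose the genes, lay outside these intervals for Ddit4, Asns, Upp1 and Atf4, and nothing is read from that. Differences within the intervals were not detectable with 3 arrays per genotype.

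The other genes of the 3 pathways were then counted in null against wt, from lists fixed by known function and without the genes above. An adjusted p under 0.05 by limma, at the brightest probe set of a gene, counted as a change. Of all tested probe sets 48 (0.692%) were called, and 777 (11.2%) had an unadjusted p under 0.05. By gene, 21 rose (0.537% of 3909) and 7 fell (0.179%), with a median log2 difference of -0.03.

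Targets of HIF, the factor stabilised in low oxygen, included 28 tested genes. Of these 6 were called higher, none fell and 22 did not pass, 27 were positive and the median log2 difference was 0.87. Adm and Ndrg1, 2 of the 6, exceeded the floor on null arrays alone and were tested only because null was high, so their calls support nothing. Among the other 26 genes 4 rose, 25 were positive and the median was 0.76. Vegfa, 1 of these 26 and not called, also reached 3 arrays over the floor only with null arrays. That hypoxia genes were higher in null was known when the list was written, so the count is not independent evidence. The glucose transporter Slc2a3 rose by a log2 difference of 2.08 (SE 0.165) and the pyruvate dehydrogenase kinase Pdk1 by 1.54. The collagen prolyl hydroxylases P4ha2 and P4ha1 rose by 1.44 and 1.37 (limma adjusted p from 0.00015 to 0.0152 for the 4). The vasodilator Adm was at least 1.77 higher on the log2 scale and Ndrg1 at least 1.19. The histone demethylase Kdm3a had 1.03 (adjusted p = 0.0516) and Pfkfb3, which makes the main activator of phosphofructokinase, 1.05 (adjusted p = 0.0581).

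Targets of Atf4 in amino acid shortage had 19 tested genes. Of these 1 was called higher, none fell and 18 did not pass, with 5 at an unadjusted p under 0.05, 13 were positive and the median was 0.21. The called gene, Vldlr, and Atf3 exceeded the floor on null arrays alone and were tested only because null was high. Among the other 17 genes none passed by limma, 11 were positive and the median was 0.18. Of these, Cebpg, Slc38a2 and Trib3 (log2 differences 0.21, 0.29 and 0.11) also reached 3 arrays over the floor only with null arrays. The count of positive genes is therefore not free of that filter. Vldlr, a lipoprotein receptor known as an Atf4 target, was 1470, 1283 and 1661 in null 2, 6 and 8, and every het and wt array lay under the floor (at most 348.6 in het and 300.6 in wt). Null exceeded wt at least 3.9-fold, a bound given without a test. HIF is known to raise Vldlr as well, so its place in this list does not name a pathway.

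The remaining amino acid transporters and other Atf4 targets lay on both sides of 0, and none passed. Slc1a4, a carrier of serine and alanine, was 649.1, 638.1 and 868.1 in null 2, 6 and 8, against 238.5, 451.9 and 306.4 in wt 1, 5 and 7 (log2 difference 0.83, limma adjusted p = 0.0800). Eif4ebp1, a translation repressor that mTORC1 switches off, had 0.72 (adjusted p = 0.125). Slc3a2, the shared heavy chain of several amino acid exchangers, was 10865, 5900 and 10496 in null 2, 6 and 9, against 5028, 6429 and 4415 in wt 1, 5 and 7 (0.75, adjusted p = 0.28), so null 6 lay within the wt range. Slc3a2 and the genes of the next sentences were picked after their values were seen. Atf3, an early Atf4 target, was 517.9, 391.4 and 462.1 in null 2, 6 and 8, just over the floor, and under it on all other arrays (log2 difference of at least 0.28). Trib3, a feedback inhibitor of Atf4 and a usual marker of strong amino acid stress, stayed next to the floor in all genotypes (log2 difference 0.11, adjusted p = 0.89). The serine synthesis enzymes Psat1 and Phgdh had 0.27 and 0.18 (adjusted p = 0.561 and 0.797). On the lower side were the amino acid transporters Slc1a5 (-0.11) and Slc6a9 (-0.14), the transcription factor Atf5 (-0.15), the aminotransferases Got1 (-0.37) and Bcat1 (-0.07), and Shmt2 (-0.02), of mitochondrial serine use (adjusted p from 0.880 to 0.995).

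The tRNA synthetases of the Atf4 programme, which charge tRNAs with amino acids, had 9 tested genes. None passed by limma, with 1 at an unadjusted p under 0.05, 6 were positive and the median was 0.24. Cars, the synthetase for cysteine, had a log2 difference of 0.76 (SE 0.246, adjusted p = 0.252) and Sars, for serine, 0.38 (adjusted p = 0.494).

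The unfolded protein response had 21 tested genes. None passed by limma, with 3 at an unadjusted p under 0.05, and the median was -0.09. Of the 21, 4 were positive (19.0%), beside 45.5% of all tested genes, and the median was 0.080 without null replicate 8 and 9. Dnajb11, a partner of Hspa5 in the ER, was 1009, 1636 and 1324 in null 2, 6 and 8, against 1858, 2559 and 3256 in wt 1, 5 and 7 (log2 difference -0.94, SE 0.252, adjusted p = 0.139). Creld2, an ER stress-inducible protein, had -0.61 (adjusted p = 0.332). Xbp1, the transcription factor of this response (picked after its values were seen), had -0.09 (SE 0.290, adjusted p = 0.938), with splicing of its RNA not read by its probe set. Also picked after their values were seen, on the higher side P4hb, an ER oxidoreductase that is also a subunit of the collagen prolyl hydroxylases, had 0.53 and Herpud1, of ER-associated degradation, 0.46 (adjusted p = 0.357 and 0.581).

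**Figure D2:**
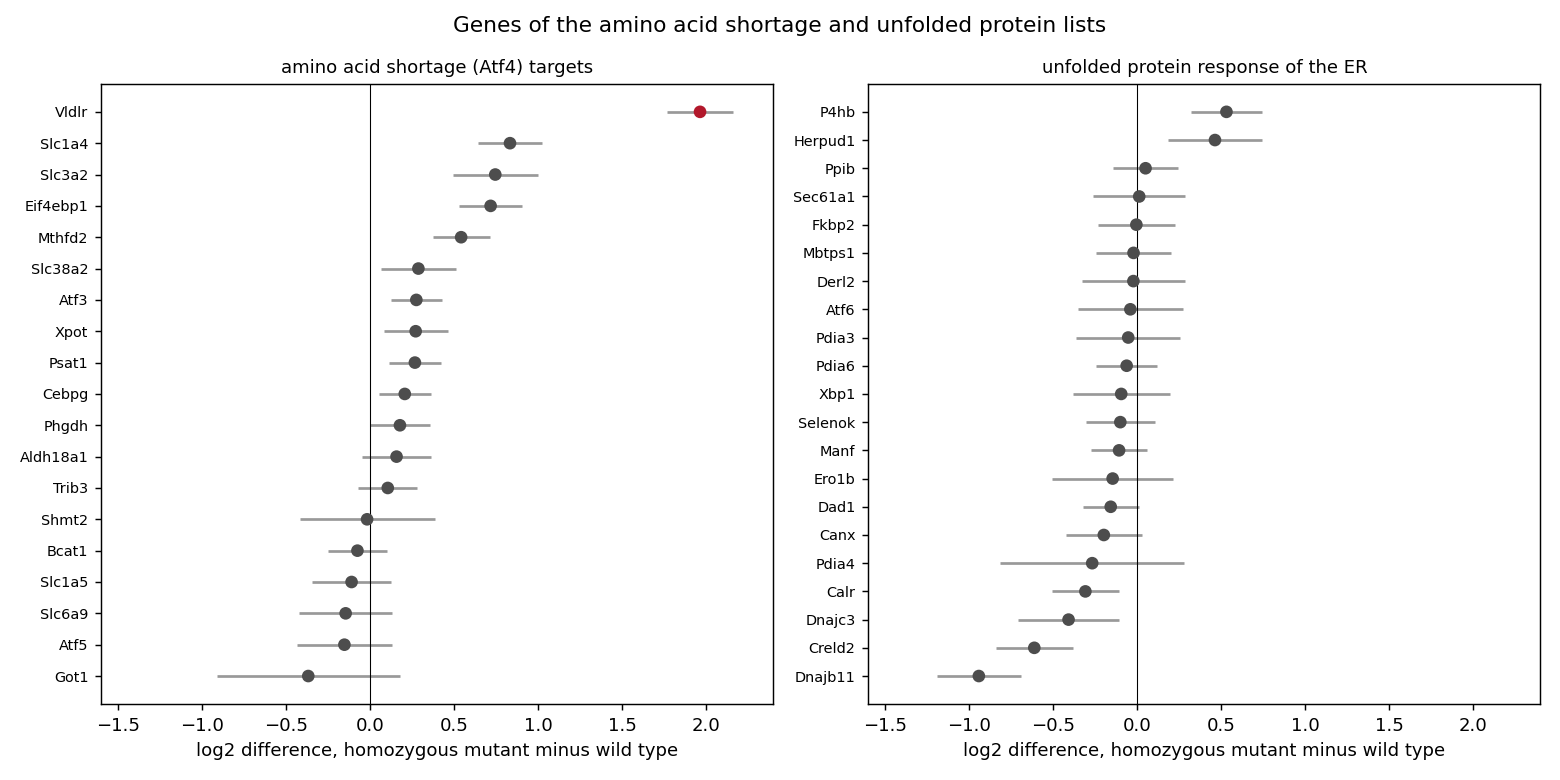
Log2 difference of null minus wild type (x axis, bars are SE) for each tested gene of the amino acid shortage list (left) and the unfolded protein list (right), with genes past an adjusted p of 0.05 in red. Vldlr is the 1 gene past the threshold and was tested only because null was high, 13 of 19 genes on the left are above zero, and 17 of 21 on the right are below it.

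By replicate, the median deviation of the hypoxia list from the wt mean was 0.83, 0.75 and 0.88 on the log2 scale in null 2, 6 and the pair of arrays 8 and 9, against -0.03 to 0.02 in het and -0.11 to 0.04 in wt. All 3 null replicates stood above the others by a similar amount. For the amino acid shortage list it was 0.10 and 0.11 in null 2 and 6 and 0.43 in the arrays of high actin ratio, against 0.00 to 0.05 in het and -0.03 to 0.11 in wt. Here null 2 and 6 lay within the wt range, and without null replicate 8 and 9 the list's median was 0.084. For the tRNA synthetases the median deviation was 0.33, 0.17 and 0.24 in null 2, 6 and the pair 8 and 9. It was -0.10 to 0.07 in het and -0.16 to 0.24 in wt. For the unfolded protein list it was near 0 in null 2 and 6 and -0.33 in the arrays of high actin ratio, against -0.04 to 0.06 in het and -0.10 to 0.04 in wt, and without those arrays its median turned to 0.080. The labels do not say whether null 8 of type a and null 9 of type b hold the same RNA.

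**Figure D3:**
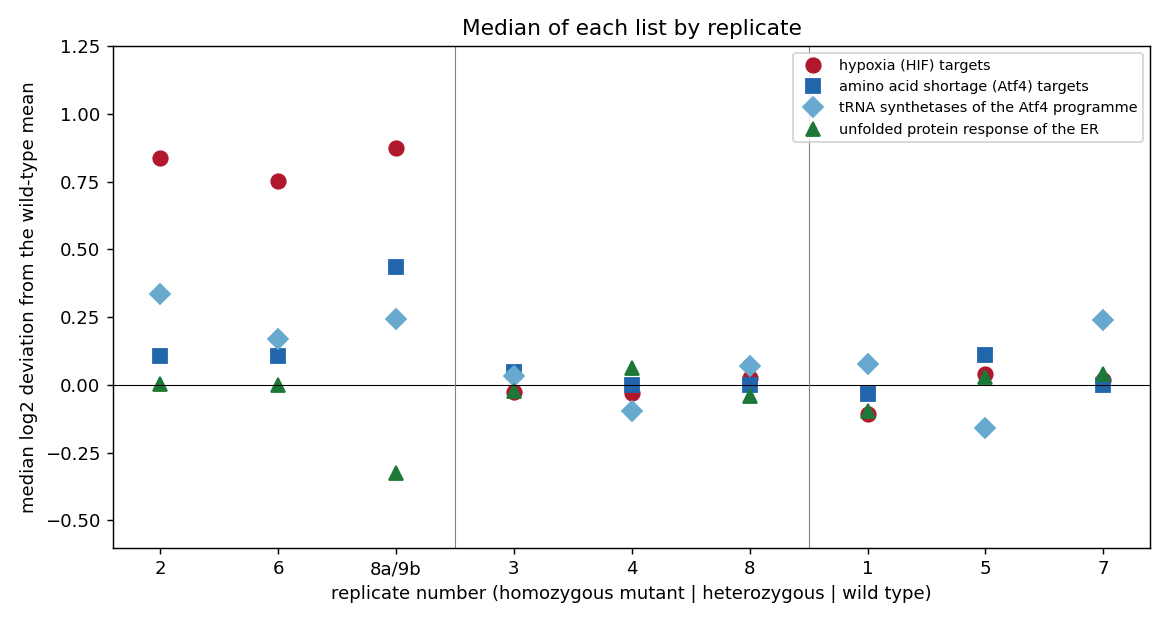
Median log2 deviation from the wild-type mean (y axis) of 4 gene lists in each replicate (x axis). The hypoxia list lies between 0.75 and 0.88 in the null replicates and between -0.11 and 0.04 elsewhere, while the amino acid shortage and unfolded protein lists depart from 0 mainly in null 8a/9b. The tRNA synthetase list lies between 0.17 and 0.33 in the null replicates, between -0.10 and 0.07 in het and between -0.16 and 0.24 in wt.

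Genes upstream of Atf4, the kinases, phosphatases and subunits around eIF2, had 8 tested members and none passed by limma, with 1 at an unadjusted p under 0.05 and a median of -0.14. Eif2s2, the beta subunit of eIF2, had 0.47 (adjusted p = 0.413), and Dnajc3, an inhibitor of eIF2 kinases that is also in the unfolded protein list, had -0.41 (adjusted p = 0.677). In the mTORC1 pathway, which Ddit4 restrains, none of 11 tested genes passed, with 4 at an unadjusted p under 0.05 and a median of -0.21. Eif4ebp1, named above and also in this list, had the smallest p and lay on the higher side (0.72, limma adjusted p = 0.125). Akt1, the kinase that relieves Tsc2 inhibition, had -0.57 (adjusted p = 0.28). Tsc1 and Tsc2 (picked after their values were seen) had 0.16 and -0.14 (adjusted p = 0.877 and 0.905).

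Around Upp1, none of 13 tested genes of pyrimidine salvage and synthesis passed, with 2 at an unadjusted p under 0.05, and 10 were negative, with a median of -0.16. Uck2, which phosphorylates uridine and so competes with Upp1 for it, had 0.45 (SE 0.130, adjusted p = 0.183), with 6090, 5925 and 6665 in null 2, 6 and 8 above 4365, 4698 and 4613 in wt 1, 5 and 7. Tyms, thymidylate synthase, had -0.49 (adjusted p = 0.327). Around Asns, none of 6 tested enzymes of asparagine, glutamine and glutamate passed, with 1 at an unadjusted p under 0.05 and a median of 0.06. Qars, the synthetase for glutamine, had 0.66 (SE 0.169, adjusted p = 0.125) and Nars, for asparagine, 0.27 (adjusted p = 0.574).

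Other stress programmes that can raise Ddit4 were counted too. Of 6 tested p53 targets none passed, with 3 at an unadjusted p under 0.05. Cdkn1a, the cyclin-dependent kinase inhibitor p21 and the standard p53 target, was under the floor on every null array (45.5, 99.1 and 50.1) and 644.7, 744.6 and 905.3 in wt 1, 5 and 7, a log2 difference of -0.53 or further (adjusted p = 0.313), while its type a probe set had -0.08. Ccng1 had 0.36 (adjusted p = 0.388). Of 8 tested glucocorticoid targets none passed, with 3 at an unadjusted p under 0.05. Of these 8 genes 7 were positive, and the median was 0.24. The metallothioneins Mt1 and Mt2, which bind zinc and copper, had the widest differences there: Mt1 was 11417, 5186 and 11828 in null 2, 6 and 9, against 3646, 220.1 and 61.9 in wt 1, 5 and 7 (3.15, SE 0.774, adjusted p = 0.117), and Mt2 had 1.29 (adjusted p = 0.0701). Fkbp5, a usual glucocorticoid marker (picked after its values were seen), was the 1 gene of this list on the lower side (-0.58, adjusted p = 0.342).

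Among 13 Nrf2 targets of oxidative stress the thioredoxin reductase Txnrd1 passed on the lower side (-0.82, SE 0.160, limma adjusted p = 0.0440) and 12 did not pass. That call was lost in 14 of 17 alternatives, among them leaving out any 1 replicate. Taldo1, of the pentose phosphate pathway, had -0.70 (adjusted p = 0.344), and Hmox1, heme oxygenase, 0.87 (adjusted p = 0.265). Of 11 heat shock genes none passed, with 3 at an unadjusted p under 0.05 and a median of -0.11, which was 0.034 without null replicate 2. Hsph1 had -0.85 (adjusted p = 0.15) and Dnaja1 -0.57 (adjusted p = 0.234).

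**Figure D4:**
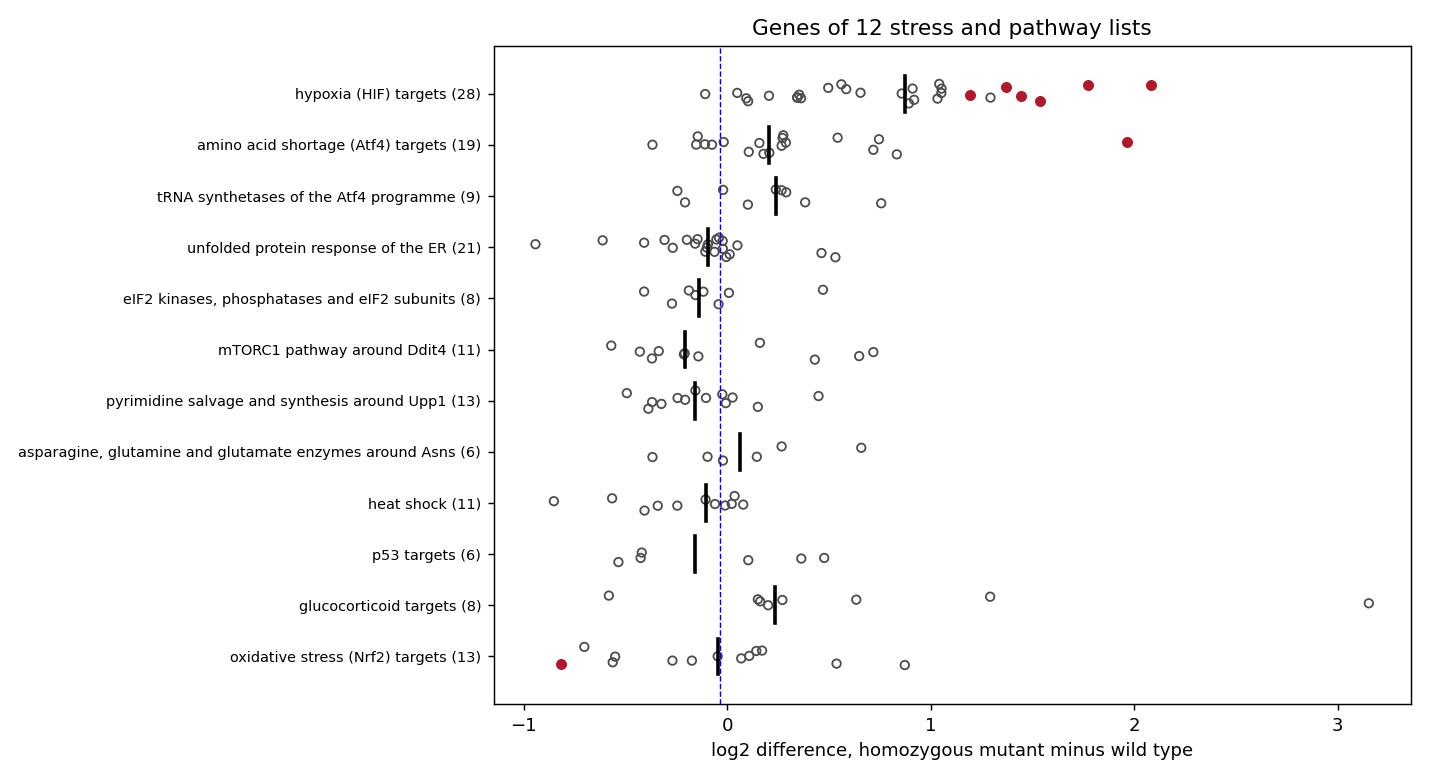
Log2 difference of null minus wild type (x axis) for each tested gene of 12 lists (rows, number of tested genes in brackets), with genes past an adjusted p of 0.05 in red, list medians as black bars and the median of all tested genes, -0.03, as a dashed line. The hypoxia list has 6 genes past the threshold, 2 of them tested only because null was high, and a median of 0.87, and no other list has more than 1 gene past it.

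In het against wt no gene of any of these 12 lists passed by limma, as none did among all probe sets. The median log2 difference was 0.00 for the hypoxia list, 0.00 for the amino acid shortage list and -0.04 for the unfolded protein list, beside 0.02 for all tested genes. Set against het, 8 genes of the hypoxia list, 1 of the amino acid shortage list and none of the unfolded protein list were called in null, with 0.767% of all tested genes called higher and 1.15% of all probe sets called. Adm and Ndrg1 of the hypoxia list and Vldlr, the amino acid shortage gene, were tested only because null was high, so their calls support nothing. This comparison shares the null arrays with that against wt.

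Marker levels of other cells differed between the genotypes, and their part in the values above was not tested. Of these markers Krt19, a keratin of simple epithelium, was the 1 gene that passed in null against wt (log2 difference 2.38, limma adjusted p = 0.00141). All 5 tested neural markers were lower in null, with summed intensity of 5317 to 9112 in null, 12207 to 15294 in het and 11753 to 17580 in wt. All 6 tested markers of simple epithelium were higher, with sums of 14602 to 24176 in null, 9949 to 12277 in het and 9195 to 10182 in wt. All 5 tested endothelial markers had positive log2 differences, from 0.01 (Cdh5) to 0.67 (Tie1). Their sums overlapped, at 10749 to 19692 in null, 7729 to 10563 in het and 8605 to 11590 in wt. Their median log2 deviation from the wt mean was -0.11 and 0.05 in null 2 and 6 and 0.78 in the arrays of high actin ratio. Heart muscle markers (7 of 10 higher) summed to 99071 to 237190 in null, 101270 to 143600 in het and 118480 to 164610 in wt. Of 10 genes listed for trophoblast and decidua only Hand1 and Des were tested, and whether they mark those tissues here was not tested. Both were lower in null, with sums of 1194 to 2016 in null, 1812 to 3056 in het and 1745 to 3165 in wt. Red cell markers overlapped between genotypes (148700 to 258970 in null, 180640 to 203790 in het and 154250 to 210300 in wt).

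Genes whose log2 level followed that of a stress gene most closely over the 9 arrays of its type were named by Pearson correlation, among 978 named genes on type b and 3130 on type a. The arrays fall into null and all others, so this likeness mainly reads that separation. For Ddit4 they were the immediate early gene Ier3 (r = 0.987), Rnf19a (0.980), Anxa2 (0.957), Ctsl (0.952) and Clcn3 (0.950). Ier3 and Rnf19a exceeded the floor on null arrays alone and were ranked only because null was high. With every het and wt value set to the floor, a high r was built in, and nothing is read from it. For Asns they were Nsa2 (0.976), Ccdc130 (0.975), Pck2 (0.969), Vldlr (0.960) and Cd63 (0.959). Pck2, the mitochondrial phosphoenolpyruvate carboxykinase and a known Atf4 target, was 1025, 507.1 and 783.1 in null 2, 6 and 8 and under the floor on every het and wt array (at most 192.0 and 333.4), a log2 difference from wt of at least 0.98. Pck2 was tested only because null was high, so no p is given. Ccdc130 and Vldlr also exceeded the floor on null arrays alone, so the r of these 3 genes was likewise built in. For Upp1 they were the hypoxia-list gene Kdm3a (0.977), Cdkn1b (0.972), Renbp (0.971), Decr1 (0.971) and P4ha2 (0.969). Among the stress genes themselves, Asns had r = 0.925 with Upp1, 0.918 with Atf4 and -0.106 with Hspa5, and Ddit4 had 0.776 with Ddit3. Ddit3 exceeded the floor only on null 2 and 9 and was set to the floor on all other arrays, so its r rests on those 2 arrays.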

How the data were processed

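Per the labels, total RNA of the middle part of embryos was measured. The deposited values are linear intensity per probe set; that they are background-subtracted and scaled was read from the values, and the authors' software is not given in the sources used here. Trimmed means (2% cut from each end) of arrays spanned 0.0491% (type a) and 0.774% (type b), so the authors' scaling was kept. Het 8 of type b lacks 499 values; it has all those described here. Control probe sets were left out (55 with the maker's prefix and 6 of yeast on each type). Symbols came from the platform annotation, updated by gene identifier (6123 of 6137 matched); 7542 probe sets had 1 symbol, 224 several and 5291 none. Each type was fitted with limma 3.58.1 in R 4.3.3 (lmFit, eBayes with intensity trend, two-sided) on 9 arrays, with Benjamini-Hochberg adjustment over both types. Each gene was read at its probe set of highest mean, and lists were described by counts and medians. The genes and lists were chosen with earlier results of these data known. The text names, for each list, up to 6 genes past the threshold of largest difference and the 2 of smallest p among the others, and marks later picks. The code was tested on simulated data. Alternatives changed the floor, the filter, the scaling, the variance model, the arrays fitted, the probe set and the replicates.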

Additional observations from a re-analysis of the deposited data

How the results depend on the processing

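The null minus wt differences of Ddit4 (3.28 to 3.44 on leaving out 1 replicate), Asns (1.15 to 1.53), Upp1 (1.23 to 1.56) and Atf4 (0.47 to 0.70) stayed positive under every alternative run, and Hspa5 ranged from -0.21 to 0.05. Upp1 was 1.57 and 0.95 with the floor at 1 and 3 noise SDs, and was not tested with the filter of 6 arrays. The 48 probe sets called in null against wt became 19 with no filter and 7 with only those genotypes fitted, and 14 to 55 without 1 replicate (14 without wt 5, 16 without wt 7, 18 without null 2, 27 without het 3). The 80 called in null against het became 45 with no filter, 40 with only those genotypes fitted, and 14 to 88 without 1 replicate (14 without het 3, 15 without het 4, 32 without null 2, 41 without het 8, 47 without wt 5). In het against wt the count was 0, and 0 to 1 without 1 replicate. The hypoxia list's median was 0.65 with the floor at 3 noise SDs, with no filter or with the filter of 6 arrays, 0.75 over all probe sets and 0.75 to 0.87 without 1 replicate, and its 6 calls became 1 with only null and wt fitted and 3 without null 2. Of its named genes Slc2a3 kept its call throughout, while P4ha1 lost it in 6, P4ha2 in 5, Pdk1 and Ndrg1 in 2 each and Adm in 1. The Nrf2 gene Txnrd1 lost its call in 14 of 17. With the filter of 6 arrays, 5 hypoxia genes and no Atf4 target were called. That filter removed Vldlr, Adm and Ndrg1 before testing, so the loss of the Vldlr call was fixed in advance and nothing is read from it. The amino acid list's median was 0.43 with the floor at 1 noise SD and 0.084 to 0.33 without 1 replicate. Without 1 replicate the medians ranged from 0.071 to 0.27 (tRNA synthetases), -0.24 to 0.034 (heat shock), -0.14 to 0.080 (unfolded protein), 0.24 to 0.40 (glucocorticoid), -0.20 to -0.044 (pyrimidine) and 0.032 to 0.16 (asparagine and glutamine). The pyrimidine median was -0.10 with no filter and -0.21 over all probe sets. The asparagine and glutamine median was 0.15 with the floor at 1 noise SD, -0.014 after quantile normalization and -0.021 over all probe sets. The p53 median turned to 0.0064 and 0.017 with the floor at 1 and 3 noise SDs and 0.052 with no filter. The cause of these shifts was not tested. No paired analysis was possible because the genotypes compared share fewer than 2 replicate numbers.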

Other observations

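Which null array was lowest differed between gene groups, a pattern noticed after the values were seen and given with no test. Among tested genes above the floor on all null arrays of their type, null 6 was the lowest for 8 of 15 Atf4 targets, 4 of 9 tRNA synthetases, 5 of 20 unfolded protein genes and 4 of 27 hypoxia genes, beside 968 of 3167 tested genes (30.6%). For the hypoxia genes it was null 8 or 9, the arrays of high actin ratio, for 16 of 27, beside 1319 of 3167. Null 6 was also the lowest null array for 12 of the 21 genes that rose in null against wt (57.1%).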
